A study of Mus musculus with 6 samples.

Results

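The genes described here govern how a cell takes up, stores, exports and senses iron. The 10 genes were Tfrc, Slc11a2, Slc39a14, Slc40a1, Fth1, Ftl1, Aco1, Ireb2, Slc25a28 and Slc25a37. They were chosen by symbol, and each was represented by its brightest probe set that carried that symbol alone. All 10 were measured, out of 19938 genes with 1 symbol on the array. The arrays compared siMnSOD cells with siScramble cells, called knockdown and control here. Both were derived from AML-12, a mouse hepatocyte line, by retroviral transfer of a pSUPER.retro.puro vector and puromycin selection. The siMnSOD vector carried a hairpin against manganese superoxide dismutase (MnSOD), designed for a low degree of silencing, and the siScramble vector carried a hairpin that recognises no gene. The labels give no further treatment, and the cells of both groups grew in the same serum-containing medium. There were 3 arrays in each group, which the titles number as biological replicates and which came from different frozen batches of cells. Whether each had its own transduction is not stated, and p-values therefore cover only the spread among these 6 samples.

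Iron enters most cells as transferrin bound to the transferrin receptor, is released and reduced in endosomes, and reaches the cytosol through divalent metal transporters. Hepatocytes also take up iron that is not bound to transferrin, keep much of the body's reserve inside ferritin, and release iron through ferroportin. The iron regulatory proteins, encoded by Aco1 and Ireb2, bind iron-responsive elements in mRNA when iron is scarce, where they protect the Tfrc transcript and block translation of the ferritin and ferroportin transcripts. Mitochondria, where MnSOD removes superoxide, import iron through the mitoferrins for heme and iron-sulfur cluster synthesis.

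Sod2, the gene of MnSOD, read 98.8, 121 and 52.3 intensity units on knockdown arrays 1, 2 and 3 and 248, 254 and 293 on control arrays 1, 2 and 3. It fell by 1.63 on the log2 scale (SE 0.30, limma adjusted p = 0.037), a call lost with median centring of the arrays (0.074) and without knockdown array 1 or 2 or control array 1 or 2 (0.13 at most). Among 10 hepatocyte markers, 8 were measured. Krt8, Krt18, Hnf4a, Apoa1 and Apoa2 lay above a background guide of 19.4 units, the 95th percentile of 1027 olfactory receptor genes, while the defining liver genes Alb, Ttr and Afp did not. The summed intensity of the 8 markers ranged from 13423 to 15604 in the knockdown and from 8402 to 13160 in the control. Control replicate 3 had the lowest sum. Most of the sum came from Krt8 and Krt18, which read 4376 and 3713 units on that array. Hnf4a was lowest there too, with 269, 258 and 210 units on control arrays 1, 2 and 3. Alb, Ttr, Afp, Apoa1 and Apoa2 were not at their lowest control level there. Of these, Apoa1 and Apoa2 had control means of only 26.6 and 26.9 units, and the others lay below the guide. Among the 8 markers, 1 was called higher, where 2.17% of all genes were. This was Hnf4a (log2 difference 1.09, SE 0.14, limma adjusted p = 0.013, up to 0.080 with single arrays left out). Krt8 stood apart between the groups without passing (0.59, SE 0.17, limma adjusted p = 0.12). Whether the marker levels bear on the iron gene results was not tested. Macrophage markers, from cells that recycle iron, summed to between 117.7 and 145.2 units in the knockdown and between 125.1 and 150.0 in the control over 6 genes. No marker of macrophages, stellate cells, endothelial cells or erythroid cells was called. Replicate 3 stood apart in both groups, though less in the knockdown. Over all probe sets, knockdown replicates 1 and 2 correlated at 0.9921, and at 0.9843 and 0.9847 with knockdown replicate 3. Control replicates 1 and 2 correlated at 0.9934, but each at 0.976 with control replicate 3. The results below are therefore also given without it where it decides them, although knockdown replicate 3 then stays in.

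Promoter sequence from RefSeq is shown for the ferritin subunits, of which the light chain separated the groups and the heavy chain did not, and for Tfrc, whose level on 1 control array departed most. Windows were listed for 6 of the 10 genes. Each line gives the 150 bases before a listed transcription start in build GRCm38.p6, 5′ to 3′ on the gene's strand, with matches to CCAAT or its reverse complement ATTGG in capitals. The CCAAT box is the recognition sequence of the transcription factor NF-Y.
Ftl1, chr7:45459887-45460036, minus strand: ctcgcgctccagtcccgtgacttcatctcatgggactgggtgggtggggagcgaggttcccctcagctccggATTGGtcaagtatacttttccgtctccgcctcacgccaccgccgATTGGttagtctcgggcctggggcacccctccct
Fth1, chr19:9982496-9982645, plus strand: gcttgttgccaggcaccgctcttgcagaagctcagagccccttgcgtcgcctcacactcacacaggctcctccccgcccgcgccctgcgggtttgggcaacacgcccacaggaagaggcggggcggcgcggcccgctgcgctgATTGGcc
Tfrc, chr16:32608746-32608895, plus strand: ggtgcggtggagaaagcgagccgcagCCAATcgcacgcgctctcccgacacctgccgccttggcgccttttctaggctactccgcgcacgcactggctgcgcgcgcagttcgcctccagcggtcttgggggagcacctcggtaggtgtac
Both ferritin genes held the motif as ATTGG, Ftl1 at 2 positions and Fth1 at 1, whereas Tfrc held it as CCAAT. Fth1 and Tfrc each had a second listed start, whose windows held no match. Over whole windows of 250 bases before to 50 after a start, CCAAT in either orientation occurred in 37.4% of 32851 windows and in 4 of the 8 windows of the iron genes, the fourth being that of Slc25a28. The motif that the ferritin genes shared is thus common among promoters.

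Among the 10 iron genes, Slc25a37 was the only one that passed the test over all genes, and it fell. By limma, with adjusted p under 0.05 as the threshold, 1 of the 10 was lower and none was higher in the knockdown, against 3.75% of all genes called in either direction (2.17% higher and 1.58% lower). At an unadjusted p under 0.05, 3 were lower and 1 was higher, against 8.06% and 8.61% of all genes. The groups did not overlap for 3 of the 10, namely Slc25a37, Ftl1 and Ireb2, against 20.9% of all genes, so that the count lay near the background. The median log2 difference was −0.07 over the 10 genes and 0.01 over all genes. All 10 lay above the background guide, whereas the shares of all genes given here include 7050 genes below it. Fitted to rows above the guide alone, 479 of 12888 genes were called higher and 365 lower. Of the 10 iron genes, 1 was again lower there and none higher. The size of the difference exceeded 0.5 for 4 of the 10 genes, and for 11.9% of all genes. In 2 of these 4, Tfrc and Slc40a1, the control arrays were spread over more than 1 log2 unit. For Slc39a14 they were spread over 0.93, and for Slc25a37 over 0.24. Without control replicate 3, Slc25a37, Slc39a14 and Slc40a1 were lower and Ftl1 was higher, where 11.2% of all genes were called. Replicates 1 and 2 alone gave calls for these 4 genes too, against 21.4% of all genes.

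**Figure D1:**
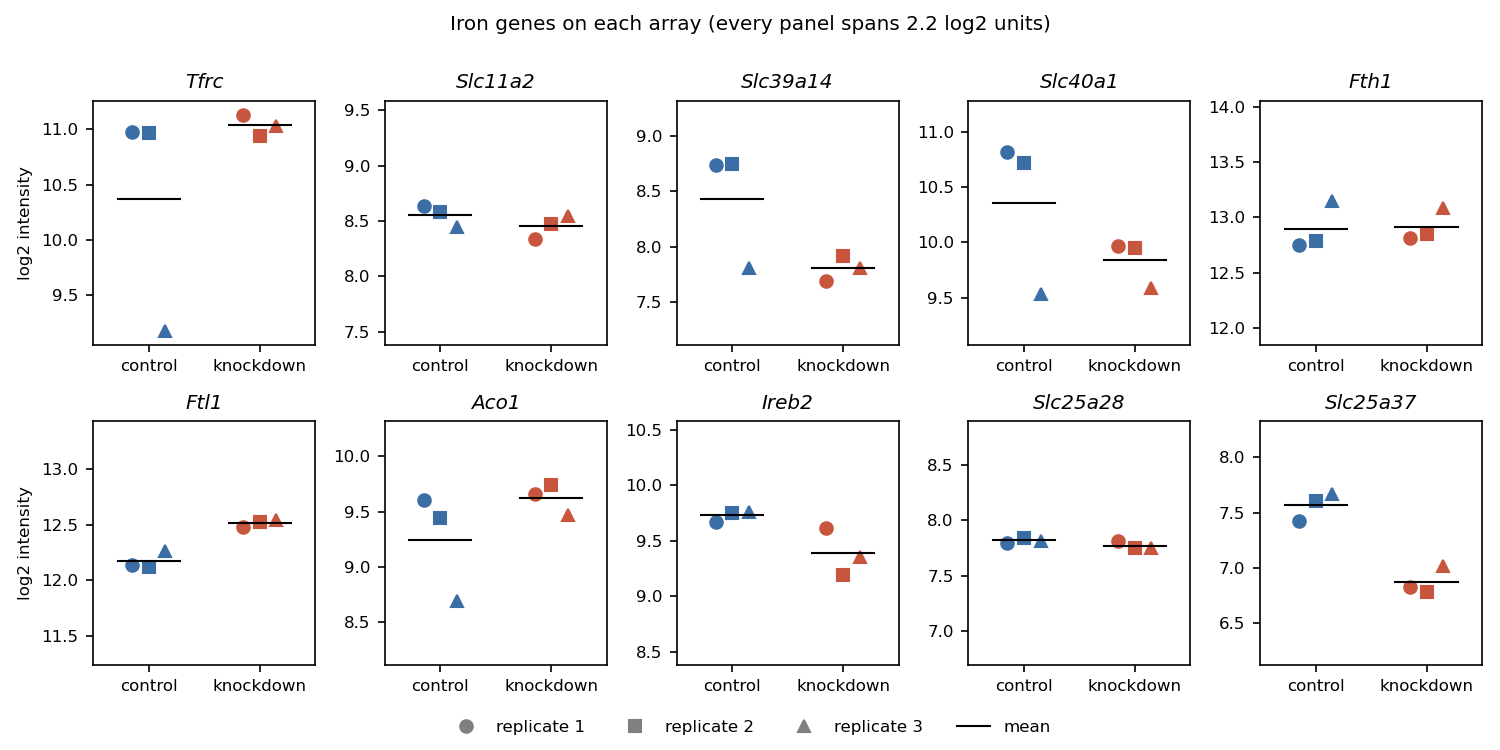
Log2 intensity of the 10 iron genes on each array, with controls in blue, knockdown in red, replicate number as the marker shape and the group mean as a line; each panel spans 2.2 log2 units. Slc25a37, Ftl1 and, narrowly, Ireb2 separate the groups. The triangle of control replicate 3 lies far below the other controls for Tfrc, Slc40a1, Slc39a14 and Aco1.

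The genes of iron uptake differed in which arrays set them apart. Tfrc encodes the transferrin receptor. It read 2245, 1966 and 2091 units on knockdown arrays 1, 2 and 3 and 2012, 1996 and 579 on control arrays 1, 2 and 3. Control replicate 3 was low and the other 5 arrays lay together, so the groups overlapped. Its log2 difference was 0.66 (SE 0.47, limma adjusted p = 0.68), and without control replicate 3 it was 0.07 (SE 0.10, adjusted p = 0.79). Within replicate numbers 1, 2 and 3 the log2 differences of Tfrc were 0.16, −0.02 and 1.85.

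Slc39a14 encodes ZIP14, the main hepatocyte transporter for iron that is not bound to transferrin. It read 206, 242 and 224 units on knockdown arrays 1, 2 and 3 and 427, 428 and 224 on control arrays 1, 2 and 3. Control replicates 1 and 2 were high, and control replicate 3 sat at the knockdown level. For Slc39a14 the log2 difference was −0.62 (SE 0.26, limma adjusted p = 0.30), and it was −0.94 (SE 0.11, adjusted p = 0.0051) without control replicate 3, where it passed the test. Within replicate numbers 1, 2 and 3 it was −1.05, −0.82 and 0.00. Slc11a2 encodes DMT1, which carries iron out of endosomes. Its intensities were 323, 355 and 374 in the knockdown and 397, 383 and 348 in the control, so the groups overlapped, with a log2 difference of −0.10 (95% interval −0.36 to 0.16, limma adjusted p = 0.91).

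Slc40a1, the gene of ferroportin, the exporter that releases iron from cells, had a pattern like that of Slc39a14. It read 1002, 991 and 772 units on knockdown arrays 1, 2 and 3 and 1808, 1679 and 741 on control arrays 1, 2 and 3. Control replicates 1 and 2 were above every knockdown array and control replicate 3 was below them all. For Slc40a1 this gave a log2 difference of −0.52 (SE 0.34, limma adjusted p = 0.63), and −0.93 (SE 0.15, adjusted p = 0.013) without control replicate 3. Within replicate numbers 1, 2 and 3 it was −0.85, −0.76 and 0.06.

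Control replicate 3 was thus low for several iron genes at once and high for others. Relative to the mean of control replicates 1 and 2, its log2 level was −1.79 for Tfrc, −1.23 for Slc40a1, −0.93 for Slc39a14 and −0.83 for Aco1. Over all genes, 0.667% lay as low as Tfrc on this array, 1.79% as low as Slc40a1, 3.42% as low as Slc39a14 and 4.32% as low as Aco1. On the same array Fth1 was at 0.38. Of the wider list described below, Steap3 was at 1.29, Trf at 1.18 and Fbxl5 at −1.06. In either direction, 24.1% of all genes departed by at least 0.5 on it. Knockdown replicate 3, set against knockdown replicates 1 and 2, was at −0.01 for Tfrc, −0.37 for Slc40a1, 0.00 for Slc39a14 and −0.23 for Aco1. These genes were singled out after their values were seen. In RNA from whole cultures, fewer cells of a kind and less RNA per cell cannot be told apart.

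**Figure D2:**
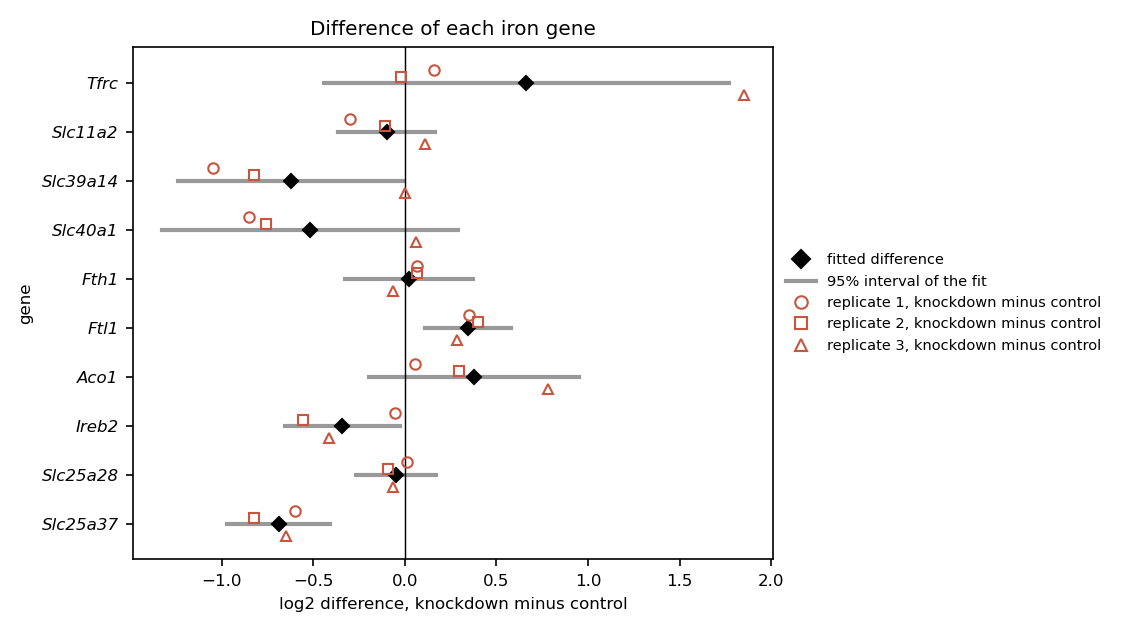
Log2 difference, knockdown minus control, for each iron gene: the diamond is the fitted value, the bar its 95% interval, and open markers are the differences within replicate numbers 1 to 3. The replicate 3 marker lies apart from the other two for Tfrc (1.85), Slc39a14 (0.00) and Slc40a1 (0.06), whereas the 3 markers of Slc25a37 (−0.60, −0.82 and −0.65) and Ftl1 (0.35, 0.40 and 0.28) lie close together.

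Of the ferritin genes, the light chain separated the groups without passing the test, and the heavy chain did not separate them. Ftl1 encodes the light subunit, which promotes mineralisation of iron inside the ferritin shell. It read 5726, 5888 and 5983 units on knockdown arrays 1, 2 and 3 and 4497, 4461 and 4912 on control arrays 1, 2 and 3. Every knockdown array was above every control array, and the knockdown level was 127% of the control. Ftl1 had a log2 difference of 0.34 (SE 0.10, 95% interval 0.11 to 0.58), which did not pass over all genes (limma adjusted p = 0.12, or 0.075 with the replicate number as a block). It was 0.39 without control replicate 3, at an adjusted p of 0.050, just inside the threshold.

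A further 4 probe sets named Ftl1 together with the microRNA genes Mir692-2 and Mir692-3, and were not used for the count. Their log2 differences were 0.32, 0.33, 0.33 and 0.34, and the groups stood apart on 3 of these 4. Their annotation lists transcripts that the Ftl1 probe set also lists, and they are therefore not independent measurements. Fth1 encodes the heavy subunit, whose ferroxidase activity oxidises iron for storage. It read 7204, 7380 and 8676 units in the knockdown and 6891, 7042 and 9090 in the control, with replicate 3 highest in both groups and the groups overlapping. Fth1 had a log2 difference of 0.02 (95% interval −0.33 to 0.37, limma adjusted p = 1.0), and its sign turned with quantile normalization. Ferritin genes have many processed copies in the mouse genome, whose signal such probe sets may also pick up.

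**Figure D3:**
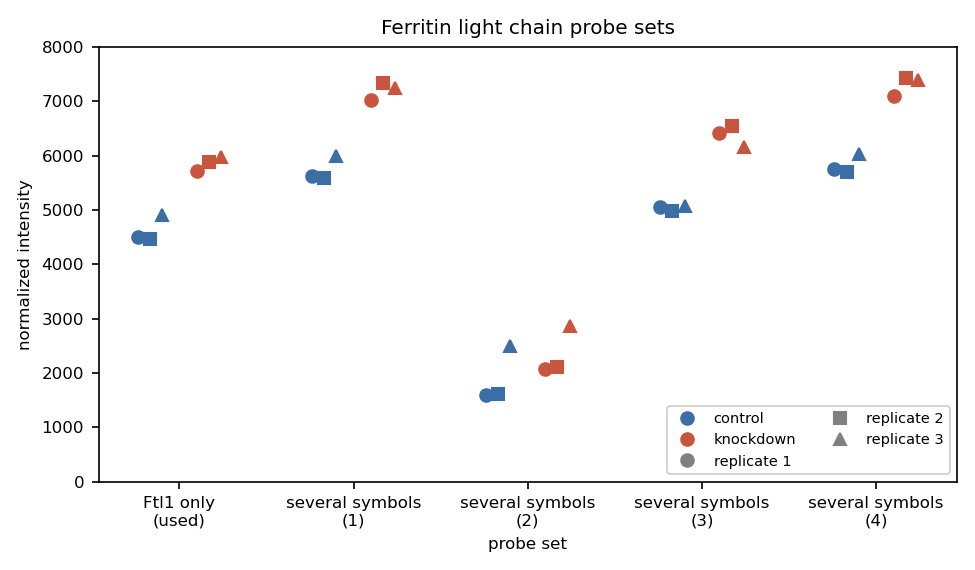
Normalized intensity on a linear axis of the 5 probe sets that name Ftl1, with controls in blue, knockdown in red and replicate number as the marker shape. Knockdown arrays lie above control arrays on 4 of the 5 probe sets, and on the remaining one the control triangle (2488 units) lies above the knockdown circle and square (2069 and 2110 units).

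The iron regulatory proteins had log2 differences of opposite sign, and neither passed the test. Ireb2 encodes IRP2, which is degraded when iron is plentiful. It read 786, 586 and 653 units on knockdown arrays 1, 2 and 3 and 816, 863 and 869 on control arrays 1, 2 and 3, so that all knockdown arrays were below all controls. The nearest pair, knockdown replicate 1 and control replicate 1, was separated by 0.05 on the log2 scale. Ireb2 had a log2 difference of −0.34 (SE 0.13, limma adjusted p = 0.26). Aco1 encodes IRP1, which acts as cytosolic aconitase when it holds an iron-sulfur cluster, a cluster known to be sensitive to superoxide. It read 808, 856 and 710 units in the knockdown and 779, 697 and 413 in the control, the groups overlapping and control replicate 3 being lowest. For Aco1 the log2 difference was 0.38 (SE 0.24, limma adjusted p = 0.61), or 0.10 (SE 0.12, adjusted p = 0.73) without control replicate 3.

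The mitochondrial iron importers differed from each other. Slc25a37 encodes mitoferrin 1, the importer best known from developing red cells. It read 113, 110 and 129 units on knockdown arrays 1, 2 and 3 and 172, 195 and 203 on control arrays 1, 2 and 3. All knockdown arrays were well below all controls, at 62.0% of the control level. Slc25a37 fell by 0.69 on the log2 scale (SE 0.12, limma adjusted p = 0.030). Exact permutation of the 6 arrays, two-sided, returned p = 0.1 for it, which is as low as this design can reach. Its value was −0.60, −0.82 and −0.65 within replicate numbers 1, 2 and 3. The call was lost without knockdown replicate 1 (−0.67, adjusted p = 0.12), knockdown replicate 2 (−0.65, 0.16), control replicate 1 (−0.76, 0.084) or control replicate 2 (−0.67, 0.14), although the value stayed between −0.76 and −0.64 whichever array was left out.

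Slc25a28 encodes mitoferrin 2, the related importer of tissues other than the erythroid lineage. It read 224, 215 and 216 units in the knockdown and 222, 229 and 225 in the control. These values overlapped and lay closer together than those of any other of the 10 genes. Slc25a28 had a log2 difference of −0.05 (95% interval −0.27 to 0.17, limma adjusted p = 1.0), with a sign that turned when arrays were centred on the medians of all probe sets. Over the 6 arrays, the genes whose log2 intensity followed Slc25a37 most closely, among 12888 genes above the background guide, were Rnf111 (Pearson r = 0.9951), Hectd2 (0.9946) and Fam8a1 (0.9941). This measure shares the arrays and the difference between groups with the test. Hectd2 fell (log2 difference −1.29, SE 0.18, limma adjusted p = 0.017), whereas Rnf111 (−0.38) and Fam8a1 (−0.32) did not pass.

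Differences within an array show how unequally related genes differed between the groups. The 4 pairs were set by role, and each value is the knockdown mean of the log2 difference between the genes minus the control mean. For Slc25a37 relative to Slc25a28 it was −0.64, with −0.61, −0.73 and −0.59 within replicate numbers 1, 2 and 3. For Fth1 relative to Ftl1 it was −0.32, with −0.28, −0.33 and −0.35. In both pairs the values were close to each other in every replicate number, replicate 3 included.

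For Ireb2 relative to Aco1 the value was −0.72, with a wider spread of −0.11, −0.85 and −1.19 within numbers, and −0.42 without control replicate 3. For Tfrc relative to Slc40a1, the receptor that brings iron in against the exporter that releases it, it was 1.18, with 1.01, 0.74 and 1.80 within numbers. Tfrc and Slc40a1 were both low on control replicate 3, and the value was 1.00 without that array. Without it, Tfrc alone differed by 0.07 (SE 0.10) and Slc40a1 alone by −0.93 (SE 0.15). The pair there thus mostly restates Slc40a1. Knockdown and control arrays stood apart in all 4 pairs. The share over all possible gene pairs was not computed, and 20.9% of single genes stood apart. Slc25a37, Ftl1 and Ireb2 stood apart alone, so their pairs partly restate them. The exact two-sided permutation p was 0.1 for each, the smallest value possible, and 0.1 after Benjamini-Hochberg adjustment over the 4 pairs, so no pair could pass a threshold of 0.05.

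A wider list held 45 further genes of iron handling, of which 42 were measured under 1 symbol and 31 lay above the background guide. Zc3h12a and Lcn2 fell and Hpx rose, while the other 39 did not pass. These 3 calls were 1 higher and 2 lower of 42, against 2.17% higher and 1.58% lower of all genes (3.75% in all), with a median log2 difference of −0.09, against 0.01 over all genes. In replicates 1 and 2 alone, 7 were higher and 9 lower, where 21.4% of all genes were called. The groups stood apart for 10 of the 42 (23.8%), near the 20.9% of all genes.

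The genes that control IRP protein or the stability of Tfrc mRNA all had negative values, as 47.7% of all genes did, and 1 of 5 passed, where 1.58% of all genes were called lower. Zc3h12a encodes Regnase-1, an endonuclease known to degrade the Tfrc transcript. It read 93.1, 108 and 104 units on knockdown arrays 1, 2 and 3 and 173, 190 and 146 on control arrays 1, 2 and 3, with no overlap. Zc3h12a fell by 0.73 on the log2 scale (SE 0.13, limma adjusted p = 0.036). Median centring of the arrays ended the call (adjusted p = 0.10), as did leaving out any 1 array except control replicate 3 (highest adjusted p 0.15). The other 4, Fbxl5, which targets IRP proteins for degradation, the Roquin genes Rc3h1 and Rc3h2, and Zfp36, ranged from −0.80 for Rc3h2 to −0.15 for Zfp36. The groups stood apart for 3 of the 5 (Zc3h12a, Rc3h1 and Rc3h2), as for 20.9% of all genes. In replicates 1 and 2 alone Fbxl5 also passed (−0.56, limma adjusted p = 0.019), where 21.4% of all genes were called.

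Scavengers of iron and heme gave the list's largest values in both directions. Lcn2 encodes lipocalin 2, which binds iron-carrying siderophores. It read 224, 251 and 689 units in the knockdown and 3858, 3761 and 3535 in the control, far apart, with knockdown replicate 3 nearest to the controls. Lcn2 fell by 3.46 on the log2 scale (SE 0.40, limma adjusted p = 0.0093), and it missed the threshold without knockdown replicate 2 (adjusted p = 0.065). Hpx encodes hemopexin, the plasma protein that binds free heme. It read 556, 571 and 301 units in the knockdown and 205, 170 and 170 in the control, again apart. Hpx rose by 1.34 on the log2 scale (SE 0.26, limma adjusted p = 0.043). Centring arrays on their medians ended its call (adjusted p = 0.092), as did analysis without any 1 of knockdown arrays 1 and 2 and control arrays 1 and 2 (0.18 at most).

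Abcb10, of the mitochondrial iron partners, and Hmox1, of heme breakdown, lay just outside the threshold, and both passed without control replicate 3. Both also passed in replicates 1 and 2 alone (limma adjusted p = 0.011 and 0.0027), where 21.4% of all genes were called. The other partner measured, Sfxn1 (−0.01), and the second heme oxygenase gene, Hmox2 (0.37, adjusted p = 0.20), did not pass in limma with all arrays. In replicates 1 and 2 alone Hmox2 passed (limma adjusted p = 0.0062). Abcb10 encodes a mitochondrial inner membrane transporter known to stabilise mitoferrin 1. It read 129, 143 and 127 units in the knockdown and 94.9, 86.8 and 97.5 in the control, so that its arrays were apart in the direction opposite to those of Slc25a37. Abcb10 had a log2 difference of 0.51 (SE 0.11, limma adjusted p = 0.052), and 0.55 (SE 0.11, adjusted p = 0.028) without control replicate 3. Hmox1 encodes heme oxygenase 1, which frees iron from heme. It read 206, 277 and 257 units in the knockdown and 680, 692 and 387 in the control. The groups were apart, and control replicate 3 was again the control nearest to the knockdown. For Hmox1 the log2 difference was −1.21 (SE 0.25, limma adjusted p = 0.051, or 0.045 with the replicate number as a block), and −1.49 (SE 0.15, adjusted p = 0.0031) without control replicate 3.

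None of 9 further uptake and reduction genes, 8 genes of hepcidin control and export, 4 of iron chaperones and ferritin turnover, or 6 other transcripts that carry an iron-responsive element passed in limma. At an unadjusted p under 0.05, 2 of these 27 genes were lower, both of the uptake list, near the 8.06% of all genes. Without control replicate 3, Steap1 (−1.05, limma adjusted p = 0.0078) and Steap2 (−0.64, 0.014) passed as lower and the transferrin gene Trf (0.46, 0.034) as higher, where 11.2% of all genes were called. In replicates 1 and 2 alone 8 of the 27 passed, where 21.4% of all genes were called: these 3 and Steap3, Mcoln1, Cp, Ncoa4 and Cdc42bpa. In each list the gene of smallest p was Steap1, of the STEAP family of membrane heme proteins (−0.79, SE 0.24), Neo1, a receptor gene of the hepcidin pathway (−0.29, SE 0.21), Ncoa4, which delivers ferritin to lysosomes (−0.40, SE 0.22), and the kinase gene Cdc42bpa (−0.25, SE 0.20). Steap1 read 168, 172 and 213 units in the knockdown and 357, 405 and 222 in the control, with control replicate 3 close to the knockdown. The hepcidin gene Hamp lay below the background guide on every array, where a difference could not be seen.

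**Figure D4:**
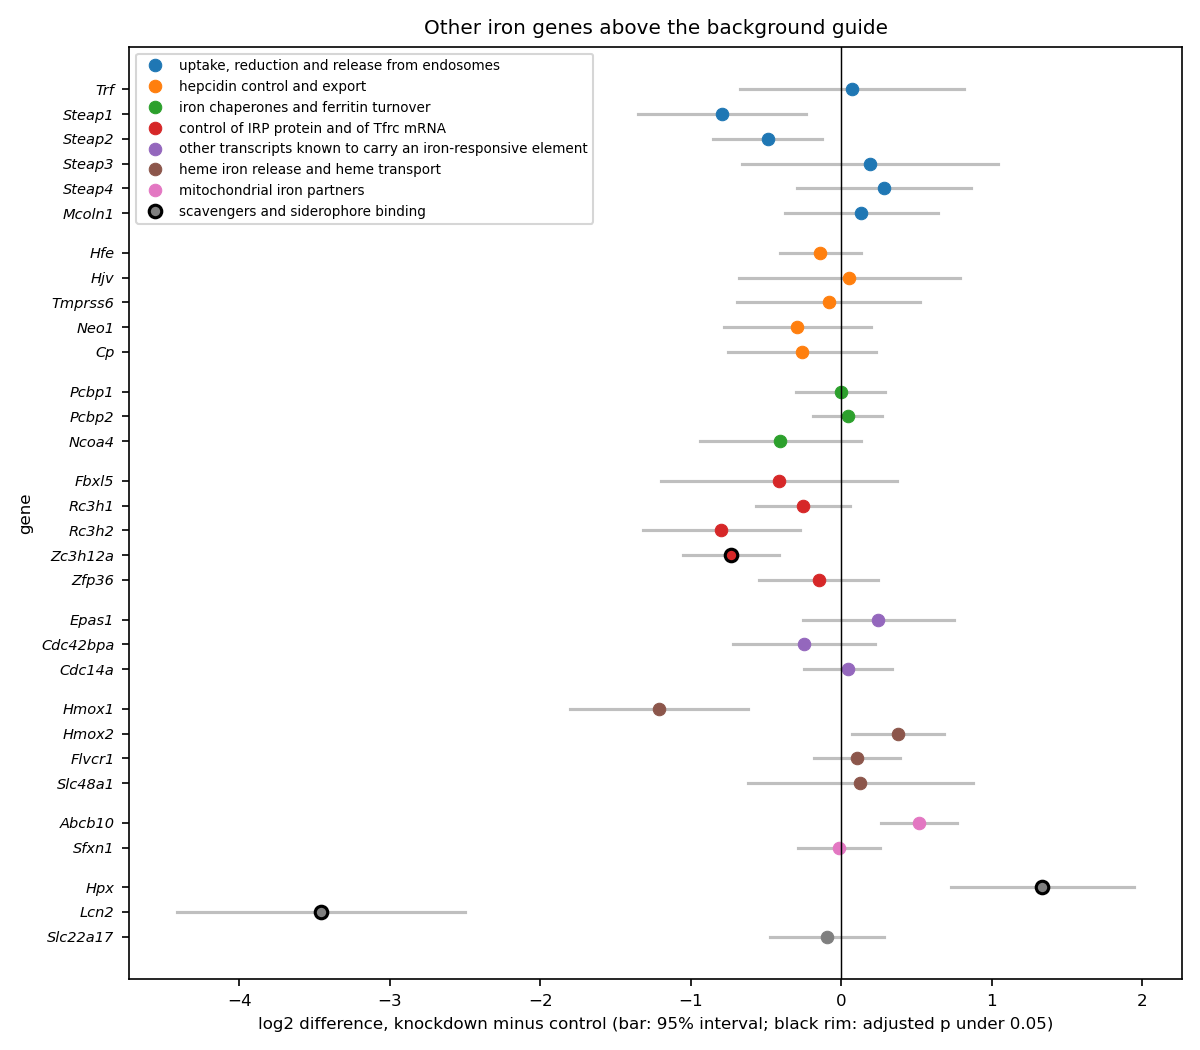
Log2 difference, knockdown minus control, of the 31 genes of the wider iron list above the background guide, grouped by role in colour, with the 95% interval of the fit as a bar and a black rim where the adjusted p was under 0.05. Lcn2 (−3.46), Zc3h12a (−0.73) and Hpx (1.34) carry a rim, and all 5 genes that control IRP protein or Tfrc mRNA lie to the left of 0.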

How the data were processed

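RNA was hybridised to Affymetrix Mouse Gene 1.0 ST arrays, 1 per sample. The authors deposited a normalized, linear-scale intensity for each of 35557 probe sets per array. RMA is the method named per the submitters' processing notes, and MAS5 scaling the one named in the series' design text. The background correction, version and genome build used are not stated. The platform annotation gave 1 symbol to 21789 probe sets, several to 1621 and none to 12147. Symbols were updated through Entrez identifiers (21698 matched in RefSeq, GRCm38.p6). The brightest probe set stood for a gene, rows with several symbols were tested but not named, and no filter on low values was used. The 21559 rows were log2 transformed and fitted with limma 3.58.1 (R 4.3.3; lmFit, eBayes) with group as the only term. The Benjamini-Hochberg adjustment ran over all rows, with a threshold of 0.05. Precision is limited by the number of arrays.

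The fit was tested on simulated data, with noise drawn independently for each gene and array. A departure shared by many genes on 1 array, as on replicate 3, was not simulated and so not covered. The genes and lists were chosen with earlier results of these data known. Of the wider list, the genes named are those called and the one of smallest p in each of 8 roles; Fbxl5, Rc3h1, Rc3h2, Zfp36, Hamp, Sfxn1, Hmox2, Steap2, Steap3, Trf, Mcoln1 and Cp were added after their values were seen. Over the tested rows, knockdown and control samples of equal replicate number deviated together from their groups. The r was 0.298, 0.286 and 0.559 for numbers 1, 2 and 3. The main fit did not use the numbers. They served as pairing only in the replicate block and in the differences within numbers, and no label explains them. Knockdown 1 with control 2 (0.465) and knockdown 2 with control 1 (0.407) correlated more, so only replicate 3 was set apart by its number. The alternatives were the replicate block, centring on medians, quantile normalization, only rows above the background guide, the mean of a gene's probe sets, a trended robust prior, replicates 1 and 2 alone, and each array left out. Centring on the medians of all probe sets was added after seeing the data.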

Additional observations from a re-analysis of the deposited data

How the results depend on the processing

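Over the 10 iron genes and 14 alternatives, 125 of 140 log2 differences kept their direction and side of the threshold, 6 came to pass it, 4 lost it and 5 turned sign. Those that turned were Fth1 with quantile normalization (−0.049) and when knockdown array 3 or control array 1 or 2 was left out (range over single arrays left out −0.062 to 0.15), and Slc25a28 with arrays centred on the medians of all probe sets (0.036). No direction could change with the replicate block, the filter on the background guide, the mean of probe sets or the trended robust prior. There the log2 differences of the 10 genes equal those of the main fit, and only the adjusted p could differ. In replicates 1 and 2 alone, 1 iron gene was higher (Ftl1) and 3 were lower (Slc39a14, Slc40a1 and Slc25a37), against 2343 and 1932 of all genes. Leaving out single arrays gave 0 to 1 iron genes higher and 0 to 3 lower, 0 to 3 and 0 to 5 of the wider list, and 52 to 1119 and 25 to 1119 of all genes, with 432 and 316 in the full set. The replicate block changed no call of the 10 genes (1 lower, none higher) and gave 801 higher and 623 lower of all genes, and of the iron genes named Hmox1 alone came to pass with it. Centring on medians gave 284 and 205 of all genes, and 0 and 1 of the wider list; centring on the medians of all probe sets gave 365 and 140 (72.3% higher, against 57.8%), and again 0 and 1. Quantile normalization gave 2 higher in the wider list, and replicates 1 and 2 alone gave 7 and 9. None of the 4 gene pairs changed sign in 32 combinations of pair and alternative. Their alternatives were the mean of probe sets, replicates 1 and 2 alone and each array left out. The mean of probe sets could not change their values. The causes were not tested. Signals below the background guide, as for 11 of 42 wider genes, limit what could be seen.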
